A study of Mus musculus with 28 samples.

Results

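The 50 genes described here encode proteins that a cell makes to enter, complete and leave mitosis, from the kinase that starts it to the proteins that split the daughter cells. They were set by name, with no measured threshold, and each matched 1 Ensembl gene identifier among the 53647 of the deposited count matrix. A cell in cycle copies its DNA in S phase, prepares in G2 and divides in M phase, and the RNA of most of these genes builds up from late S phase to mitosis. Cyclin-bound CDK1 drives entry, condensin and topoisomerase compact the chromosomes, kinetochores couple them to spindle microtubules, and the anaphase-promoting complex ends mitosis by marking cyclins and securin for destruction. Endothelial cells of the healthy adult brain are mostly out of cycle, while cancer cells and sprouting vessels divide.

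RNA was sequenced from vascular cells sorted out of mouse brains that carried experimental brain metastases (BrM) or no tumor. All groups are described under 1 genetic background, PDGFRβ-CreERT2 with Rosa-tdTomato, in which tamoxifen (2 mg a day for 5 days) turns on a red reporter in cells that express PDGFRβ. The BrM mice had received PyMT-BrM3 cells, of breast origin, or Sv2T3-BrM1 cells, of lung origin, into the heart. After cells positive for CD45, CD11B or EPCAM had been gated out, CD31-positive cells were taken as endothelial and reporter-positive cells as mural, the pericytes and smooth muscle cells of the vessel wall. The groups were CD31 from non-tumor brain (5 libraries), breast BrM (5) and lung BrM (5), and PDGFRb from non-tumor brain (5), breast BrM (4) and lung BrM (4). In all, 13 mice or pools gave both sorts, and 2 lung labels name 2 mouse numbers each and are 1 library per sort. The reporter marks any cell that expressed PDGFRβ when tamoxifen was given, and the age of the mice is not given in the sources used here.

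Libraries held 7105172 to 23934043 counts, and 3 counts in a library are worth 0.125 to 0.422 CPM (counts scaled to raw library totals, the usual unit of level). Endothelial markers summed to 6273 to 13079 CPM in the CD31 libraries, and Pecam1, which encodes CD31, stood at 586 CPM or more in each. Mural markers summed to 21550 to 42180 CPM in the PDGFRb non-tumor libraries and 7225 to 20135 CPM in breast BrM. In lung BrM they were at 9602 CPM in mouse 51435 and at 329 to 560 CPM in the other 3 PDGFRb libraries, which goes against the label of those libraries as mural. The PDGFRb breast library of mouse 51950 stood apart, with 9168 genes detected against 12592 to 22724 elsewhere and 21 of the 50 genes at 0. The title and the cell type label of mouse 54135 name opposite sorts, and its libraries were grouped by title, which their Pecam1 and Pdgfrb levels fit.

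The promoters of 4 of the genes are shown because mitotic genes are known to share 2 short elements, the cell cycle genes homology region (CHR, TTTGAA or its variant TTCGAA), where the DREAM and MuvB complexes with B-MYB (Mybl2) and FOXM1 act, and CCAAT boxes, bound by NF-Y. Each stretch runs 5′ to 3′ from 250 bases before to 50 bases after the RefSeq start (GRCm38.p6), with CHR matches and CCAAT boxes on either strand in capitals.

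Mki67 (chr7:135716330-135716629, minus strand): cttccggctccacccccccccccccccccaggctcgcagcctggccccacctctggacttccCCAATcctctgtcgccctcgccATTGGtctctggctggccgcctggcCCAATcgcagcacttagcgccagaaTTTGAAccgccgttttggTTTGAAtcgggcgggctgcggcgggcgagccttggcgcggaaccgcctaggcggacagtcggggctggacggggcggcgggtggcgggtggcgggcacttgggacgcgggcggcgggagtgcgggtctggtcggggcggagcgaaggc
Aurka (chr2:172370521-172370820, minus strand): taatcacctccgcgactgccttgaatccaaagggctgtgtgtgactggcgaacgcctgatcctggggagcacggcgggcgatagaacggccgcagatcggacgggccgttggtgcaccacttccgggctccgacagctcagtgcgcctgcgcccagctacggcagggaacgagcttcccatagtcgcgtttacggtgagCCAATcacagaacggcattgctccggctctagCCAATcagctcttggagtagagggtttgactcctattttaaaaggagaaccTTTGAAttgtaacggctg
Bub1 (chr2:127831810-127832109, minus strand): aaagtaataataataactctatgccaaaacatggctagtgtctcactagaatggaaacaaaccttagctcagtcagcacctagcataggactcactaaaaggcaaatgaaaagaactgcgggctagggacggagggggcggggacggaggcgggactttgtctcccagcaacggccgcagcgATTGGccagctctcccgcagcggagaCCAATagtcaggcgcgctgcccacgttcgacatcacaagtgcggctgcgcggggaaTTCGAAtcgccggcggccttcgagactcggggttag
Prc1 (chr7:80294201-80294500, plus strand): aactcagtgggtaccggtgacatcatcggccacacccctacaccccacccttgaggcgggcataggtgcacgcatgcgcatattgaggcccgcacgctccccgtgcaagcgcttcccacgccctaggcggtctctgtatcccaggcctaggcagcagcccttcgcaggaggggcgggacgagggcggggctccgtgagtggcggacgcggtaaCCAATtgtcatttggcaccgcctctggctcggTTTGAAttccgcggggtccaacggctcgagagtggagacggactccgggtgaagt

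RefSeq promoters were matched for 40 of the 50 genes (42 promoters). Either CHR sequence lay between 60 bases before and 50 bases after the start in 71.43% of these promoters, against 5.90% of all 32851 mouse promoters of the same length. A CCAAT box was found in 76.19% against 37.41%, at least 2 of them in 52.38% against 11.70%, and a CHR sequence with a CCAAT box in 69.05% against 7.52%. The 6-letter and 5-letter words were searched on both strands. Matches that share bases were each counted, as for 2 CCAAT boxes on opposite strands in the Ube2c promoter. In the Bub1 promoter the variant TTCGAA starts 14 bases after the start site, downstream of 2 CCAAT boxes, and in that of Mki67 both TTTGAA words lie 98 to 116 bases before the start. A TATA box (TATAAA) was present in 2.38% of the promoters against 13.62% of all. These matches describe letters and do not show binding.

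The 50 genes were low in CD31 cells of non-tumor brain and high in both kinds of BrM. Their summed level was 98.6, 104, 105, 115 and 136 CPM in the 5 non-tumor CD31 libraries. In breast BrM it was 1203, 1348, 1930, 1938 and 2225 CPM, and in lung BrM 667, 1058, 1405, 1429 and 1860 CPM. The lowest BrM library, the lung pool 55169-70, thus lay above the highest non-tumor library, and the breast and lung ranges overlapped. In edgeR's quasi-likelihood test, with Benjamini-Hochberg adjustment over all 14876 genes tested, 49 of the 50 genes were higher in breast BrM at an adjusted p under 0.05 and none was lower, against a background of 18.6% of genes called higher and 11.4% called lower. In lung BrM 47 were higher and none lower, against 20.4% and 14.5%. The median log2 change was 5.31 in breast and 4.86 in lung BrM, where the median over all genes tested was 0.0409 and -0.00329. Every one of the 50 genes passed the filter on low counts, but 7 had fewer than 10 counts over the 5 non-tumor libraries and passed through their BrM level, so these counts and medians are descriptions. For 48 genes all 5 breast libraries lay above all 5 non-tumor libraries, and for 34 genes all 5 lung libraries did, where 20.6% and 14.8% of genes did so. In a bulk library, more dividing cells and more mitotic RNA per cell cannot be told apart. If mouse 54135 is assigned by its cell type label instead, 9 genes are called in breast and 6 in lung BrM, since its PDGFRb library then counts as endothelial. The share of all genes called was not computed for that grouping. P-values measure the spread between mice, and the 2 comparisons share their non-tumor libraries.

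**Figure D1:**
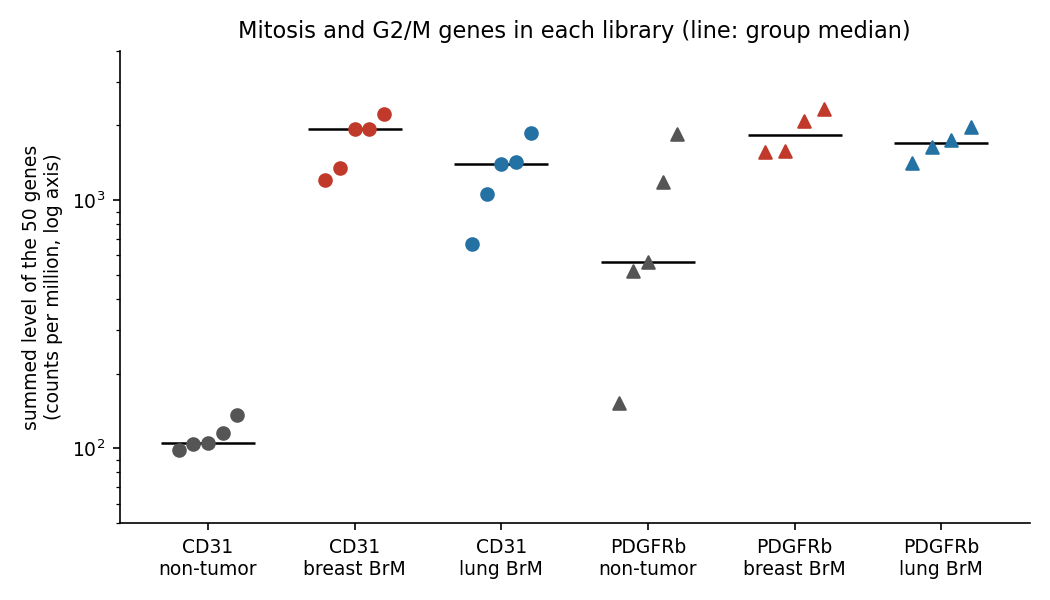
Summed level of the 50 mitosis and G2/M genes in each of the 28 libraries (CPM, log axis), with the group median as a line. The CD31 non-tumor libraries lie between 98.6 and 136 CPM, below every BrM library of either sort, while the PDGFRb non-tumor libraries range from 152 to 1847 CPM.

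Chromatin compaction genes showed the widest contrast among themselves. Mki67 encodes Ki-67, which coats mitotic chromosomes and is the usual marker of cells in cycle. It stood at 0, 0.0587, 0.0972, 0.317 and 1.14 CPM in non-tumor CD31 libraries, at 24.6, 26.1, 33.9, 43.2 and 58.4 CPM in breast and at 4.27, 7.34, 16.8, 18.005 and 18.5 CPM in lung BrM. The BrM groups did not overlap non-tumor, and the 5 breast libraries also lay above the 5 lung libraries. Its log2 change was 6.76 ± 0.83 (SE) in breast and 5.27 ± 0.79 in lung BrM (edgeR adjusted p = 1.48e-05 and 8.82e-05). Top2a, the topoisomerase that untangles sister chromatids, rose by 7.95 ± 0.74 and 6.95 ± 0.72 on the same scale. The condensin subunits moved less, apart from Ncapg. Smc4, a condensin ATPase, had the smallest change of the 50 genes in both comparisons. It stood at 13.5, 14.5, 15.8, 16.6 and 21.7 CPM in non-tumor, 19.8, 20.2, 24.4, 28.7 and 29.1 CPM in breast and 9.32, 9.71, 14.7, 17.8 and 24.05 CPM in lung libraries. These ranges overlap, and its log2 changes of 0.52 ± 0.28 and -0.16 ± 0.28 did not pass the test (edgeR adjusted p = 0.185 and 0.703). In lung BrM the sign of the Smc4 change turned under several other settings, with the values in the closing section. Its partner Smc2 rose by 1.24 ± 0.26 in breast and stood at 0.64 ± 0.26 in lung BrM (edgeR adjusted p = 0.00187 and 0.0675). In lung BrM the 5 Smc2 levels were 10.2, 16.5, 20.4, 22.9 and 29.3 CPM, and the lowest, pool 55169-70, lay just under the non-tumor range of 10.3 to 14.1 CPM. Both SMC proteins also hold chromosomes outside mitosis. Ncapd2 (condensin I) rose by 1.34 ± 0.32 and 0.96 ± 0.32.

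The cyclin, CDK and transcription genes rose in both comparisons, 8 of 8 each. Ccnb1 encodes cyclin B1, the partner that activates CDK1 at mitotic entry. It stood at 0.0528, 0.0545, 0.385, 0.880 and 1.07 CPM in non-tumor CD31 libraries, at 32.1, 36.1, 49.7, 84.0 and 110.3 CPM in breast and at 14.7, 32.3, 46.1, 61.8 and 68.5 CPM in lung BrM. Both BrM groups lay above all non-tumor libraries. The log2 change was 6.90 ± 0.71 and 6.46 ± 0.69. Ccnb2 (cyclin B2) rose by 8.84 ± 0.41 and 8.77 ± 0.41, and Cdk1 itself by 6.31 ± 0.37 and 5.97 ± 0.37. The transcription factors of the programme rose less: Foxm1 by 3.54 ± 0.33 and 2.84 ± 0.32, and Mybl2 by 4.13 ± 0.92 and 3.59 ± 0.90. Ccna2 (cyclin A2), Cks2 (a CDK1 subunit) and the phosphatase Cdc25c, which removes the inhibitory phosphates of CDK1, lay between, from 4.53 for Cks2 in lung to 7.25 for Cdc25c in breast BrM.

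The chromosomal passenger complex places Aurora B at the inner centromere, where it corrects faulty attachments. Aurkb, its kinase, stood at 0, 0, 0.0528, 0.0972 and 0.218 CPM in non-tumor CD31 libraries, at 12.7, 22.04, 27.8, 32.4 and 34.4 CPM in breast and at 9.87, 12.6, 18.7, 19.6 and 60.7 CPM in lung BrM. The highest lung value came from the pool 56195-56520, and neither BrM group overlapped non-tumor. Its log2 change was 8.26 ± 0.77 and 8.20 ± 0.77. Birc5 (survivin), which anchors the complex, rose by 8.61 ± 0.49 and 8.27 ± 0.48, and Cdca8 (borealin) by 4.84 ± 0.38 and 4.63 ± 0.38.

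Of the other mitotic kinases, 5 of 5 rose in each comparison. Aurka, the centrosomal Aurora kinase, stood at 1.41, 1.65, 1.73, 2.27 and 3.87 CPM in non-tumor CD31 libraries, at 12.6, 20.5, 28.3, 36.04 and 40.5 CPM in breast and at 15.3, 23.6, 29.2, 32.0 and 32.7 CPM in lung BrM. Neither BrM group overlapped non-tumor, with log2 changes of 3.58 ± 0.38 and 3.57 ± 0.38. Melk, a kinase of dividing and progenitor cells, had the largest change of the 50 genes in both comparisons. It had a single count among the 5 non-tumor libraries, with levels of 0, 0, 0, 0 and 0.0481 CPM. In breast BrM it stood at 9.17, 10.6, 15.8, 17.0 and 26.4 CPM and in lung BrM at 5.96, 8.47, 10.5, 11.9 and 15.6 CPM. The ratio of pooled levels was 1502 in breast BrM, with a 95% counting interval of 269 to 59361, and 1001 in lung BrM (179 to 39573). The width of the intervals comes from the 1 non-tumor count, and amplified reads without molecular barcodes make them cover counting error only. Plk1, which acts at centrosomes, kinetochores and the midbody, rose by 5.69 ± 0.45 and 5.19 ± 0.44. Ttk (the checkpoint kinase MPS1) and Pbk rose too, Pbk by 8.43 ± 0.84 and 8.15 ± 0.83.

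Kinetochore and checkpoint genes rose in 10 of 10 cases in breast and 9 of 10 in lung BrM. Bub1, a checkpoint kinase that marks centromeric histones, was detected in 1 of 5 non-tumor CD31 libraries, at 0.106 CPM, from 2 counts. It stood at 7.52, 8.97, 10.3, 10.7 and 15.8 CPM in breast and at 0.311, 1.71, 5.05, 9.68 and 13.4 CPM in lung BrM. The lowest lung library, mouse 51697, was near the floor of detection. The ratio of pooled levels was 503 (95% counting interval 139 to 4162) in breast and 292 (80.4 to 2420) in lung BrM. Ndc80, whose protein is the microtubule-binding arm of the kinetochore, was the member that missed the threshold in lung BrM. Its non-tumor levels were close together, 1.74, 1.85, 1.99, 2.16 and 2.23 CPM, while lung libraries stood at 0.0777, 1.76, 6.35, 6.78 and 20.1 CPM. In breast BrM it rose by 2.26 ± 0.82 (edgeR adjusted p = 0.0477), and the lung change was 1.77 ± 0.81 (edgeR adjusted p = 0.102). The breast call was lost with limma-voom, with no filter, with date as a covariate and without any single non-tumor library. DESeq2 and RLE or upper-quartile scaling kept it. Mouse 51697 had the lowest lung level of Bub1 and of Ndc80. The other arms of the same NDC80 complex rose more, Nuf2 by 7.10 ± 0.79 and 6.49 ± 0.78, Spc24 by 6.33 ± 0.49 in breast BrM, and Spc25 by 3.72 ± 0.50 and 2.86 ± 0.48. Cenpa, the histone that marks centromeres throughout the cycle, rose by 2.695 ± 0.31 in breast BrM, and Mad2l1, which holds back anaphase, by 1.84 ± 0.36. Bub1b (BUBR1), Cenpe and Cenpf, all of the outer kinetochore, rose by 2.94 to 7.03 across both comparisons.

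Spindle genes rose in 9 of 9 cases in each comparison. Tpx2, which activates Aurora A on spindle microtubules, stood at 0.292, 0.327, 0.481, 0.897 and 1.12 CPM in non-tumor CD31 libraries, at 37.6, 38.3, 52.8, 58.8 and 61.7 CPM in breast and at 25.3, 35.5, 37.7, 40.4 and 53.8 CPM in lung BrM. The groups were far apart, and the log2 change was 6.27 ± 0.38 and 5.92 ± 0.38. Kif2c (MCAK, a kinesin that shortens microtubules) had 3 non-tumor counts, and its ratio of pooled levels was 464 (95% counting interval 158 to 2253) in breast and 413 (141 to 2004) in lung BrM. Kif11, the motor that pushes spindle poles apart, rose by 5.17 ± 0.99 and 4.49 ± 0.96, and Kif15, which backs it up, by 5.25 ± 0.57 and 4.37 ± 0.55. The chromokinesin Kif4 and the microtubule-binding proteins Nusap1, Hmmr, Ckap2l and Dlgap5 changed by 2.58 to 7.47. In lung BrM the libraries overlapped non-tumor for 4 of these 9 genes (Kif11, Kif4, Nusap1 and Ckap2l).

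Midzone and cytokinesis genes rose in 6 of 6 cases in each comparison, with the smallest margins in lung BrM. Prc1 bundles the microtubules between the separating chromosomes. It stood at 0.436, 1.23, 1.92, 2.16 and 3.94 CPM in non-tumor CD31 libraries, at 37.0, 42.7, 65.5, 69.3 and 72.4 CPM in breast and at 5.36, 10.3, 19.6, 44.1 and 48.3 CPM in lung BrM. The lowest lung library was again mouse 51697, above the highest non-tumor library. The log2 change was 4.81 ± 0.63 and 3.66 ± 0.60. Kif23 and Racgap1 form centralspindlin and Ect2 is the exchange factor it recruits. Racgap1 rose by 3.88 ± 0.35 and 3.85 ± 0.35. Kif23 (2.09 ± 0.45 and 1.17 ± 0.44) and Ect2 (3.11 ± 0.93 and 2.45 ± 0.91) lay just inside the threshold in lung BrM, with edgeR adjusted p of 0.0488 and 0.0468. Both lost that call without a filter on low counts (edgeR adjusted p = 0.0984 and 0.0544). Anln (anillin) of the contractile ring rose by 6.23 ± 1.07 and 5.13 ± 1.02. Kif20a (MKLP2), which moves the passenger complex to the midzone, stood at 0.0640 CPM in the lung pool 56195-56520 and at 7.72, 14.4, 37.6 and 49.9 CPM in the other 4 lung libraries.

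Mitotic exit genes rose in 3 of 3 cases in each comparison. Cdc20, the activator of the anaphase-promoting complex, was measurable in each non-tumor CD31 library, at 3.06, 4.13, 4.69, 4.75 and 5.05 CPM. It stood at 51.7, 58.5, 67.2, 70.6 and 78.6 CPM in breast and at 30.5, 76.1, 79.5, 85.2 and 91.2 CPM in lung BrM. Every BrM library lay above non-tumor, and the lung pool 55169-70 was the lowest of them. The log2 change was 3.86 ± 0.27 and 4.03 ± 0.28. Ube2c, the ubiquitin-conjugating enzyme of that complex, rose by 7.57 ± 0.47 and 6.93 ± 0.46, and Cdca3, a trigger of mitotic entry that the complex degrades, by 6.90 ± 0.47 and 6.74 ± 0.47.

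**Figure D2:**
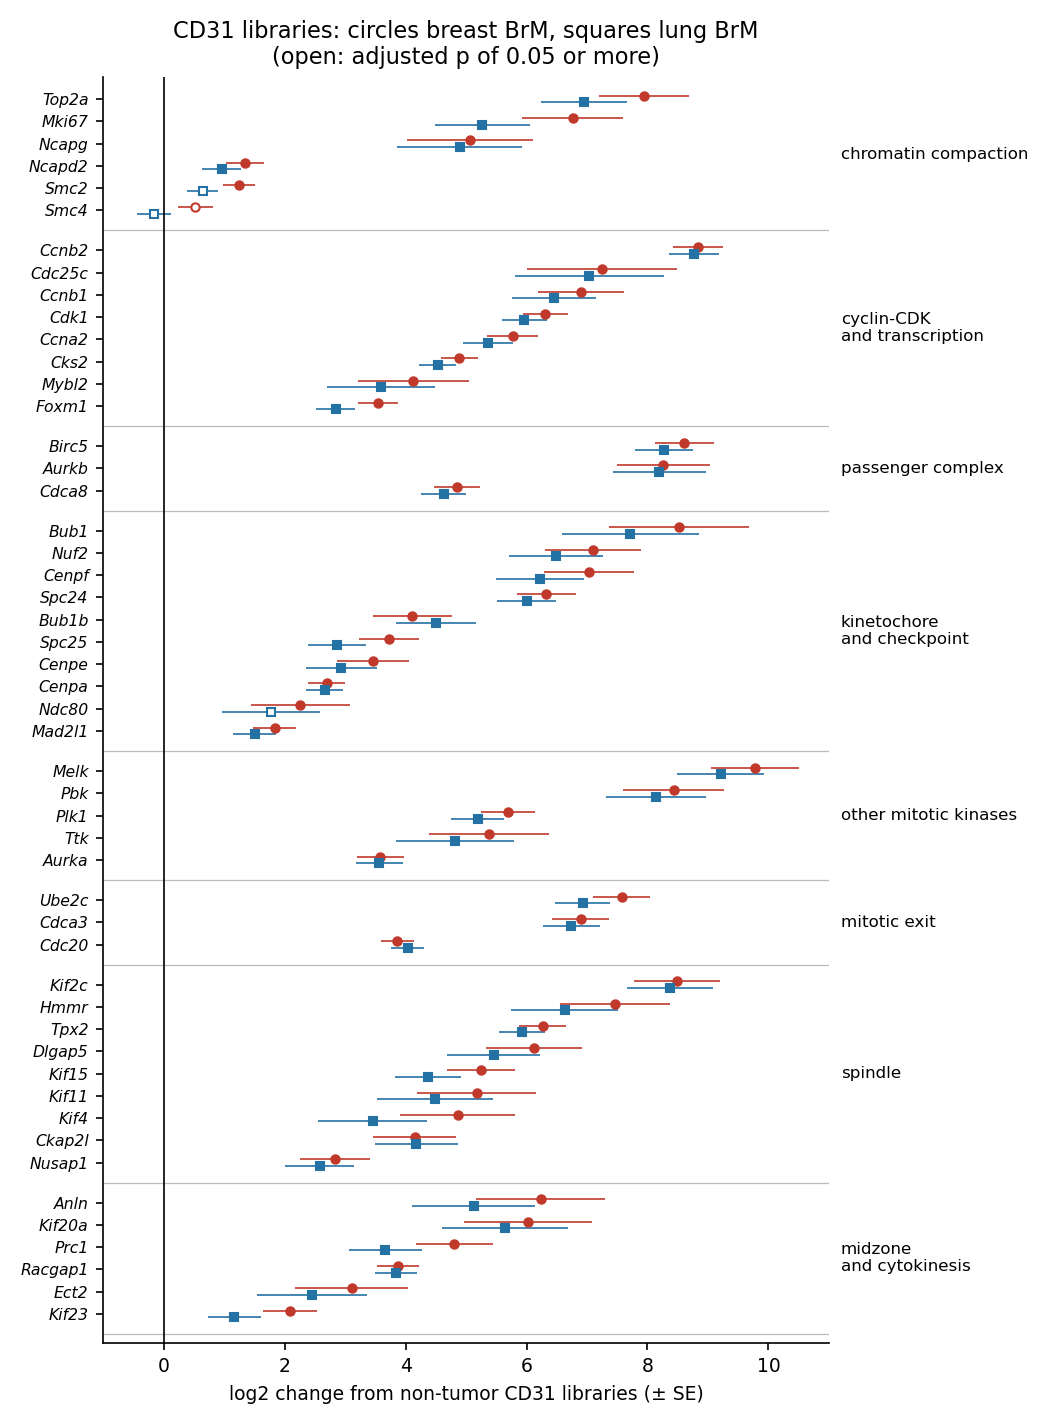
Log2 change from non-tumor CD31 libraries (x axis, with SE bars) of each of the 50 genes (y axis, by role), circles for breast and squares for lung BrM, open where the adjusted p was 0.05 or more. Changes run from -0.16 for Smc4 in lung to 9.77 for Melk in breast BrM, and the open symbols are Smc4 in both comparisons and Smc2 and Ndc80 in lung BrM.

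No gene of the 50 was called between lung and breast BrM in the CD31 sort, where 2.13% of all genes were. By edgeR's unadjusted p, 4 fell under 0.05, each lower in lung BrM. Mki67 differed by -1.50 ± 0.64 (edgeR adjusted p = 0.287), Foxm1 by -0.70 ± 0.30 (0.289 in the same test), Smc4 by -0.68 ± 0.28 and Smc2 by -0.60 ± 0.26. Of the 50 differences, 3 were above 0, and the median was -0.47. DESeq2 called 0 of them and limma-voom called Mki67 (-1.61, adjusted p = 0.0428). No date in the column names holds both origins, which are linked by non-tumor libraries of the same dates, and with date as a covariate 0 were called, with a median of -0.80.

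On deposited FPKM values, which allow levels to be compared between genes, the order of the 50 genes differed between non-tumor and BrM. In non-tumor CD31 libraries the highest means were those of Cenpa (10.01 ± 3.25, SD, n = 5), Smc4 (8.99 ± 3.85), Ncapd2 (7.67 ± 2.19), Smc2 (6.83 ± 2.15) and Mad2l1 (5.48 ± 0.96). Spreads of neighbours in this list overlap, while those of Cenpa and Mad2l1 do not. In breast BrM they were those of Cdk1 (134.9 ± 32.4 FPKM), Cks2 (112 ± 18.8), Birc5 (107 ± 22.6) and Ube2c (101 ± 24.4), and in lung BrM those of Cdk1 (106 ± 34.4), Cks2 (84.4 ± 36.5), Birc5 (83.4 ± 27.6) and Cenpa (71.6 ± 33.7). Neighbours in these orders did not differ beyond their spread. The 3 genes with the smallest log2 changes in breast BrM, Smc4, Smc2 and Ncapd2, were thus among the 4 highest in non-tumor CD31 libraries.

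RNA of cancer cells was measurable in the CD31 BrM libraries, although EPCAM-positive cells had been gated out. The 22 cancer epithelial markers summed to 12.0 to 21.5 CPM in non-tumor, 186 to 4032 CPM in breast and 143 to 2372 CPM in lung BrM. Krt8 and Krt18, keratins of simple epithelia, stood at 31.6 to 919 CPM in each BrM library. The summed level of the mitotic genes spread over a smaller fold range than that of the markers. Over the 10 CD31 BrM libraries it varied 3.33-fold from lowest to highest, against 28.2-fold for the markers. In breast BrM, libraries with 186, 394, 424, 1556 and 4032 CPM of markers held 1203, 1348, 1938, 1930 and 2225 CPM of mitotic RNA. In lung BrM, those with 143, 272, 680, 1401.5 and 2372 CPM held 667, 1405, 1429, 1058 and 1860 CPM. Within each origin, the library lowest in markers was thus also lowest in mitotic RNA (mouse 52599 and pool 55169-70). The one highest in markers was also highest in mitotic RNA (mice 53072 and 51435). What this shared order comes from was not tested. Mitotic RNA per CPM of cancer markers was 0.552 to 6.46 in CD31 BrM libraries, and 0.423 to 1.37 in PDGFRb breast and 0.156 to 0.225 in PDGFRb lung libraries. Immune markers summed to 8.69 to 248 CPM in the CD31 BrM libraries against 14.9 to 27.0 CPM in non-tumor. Ptprc (CD45) stood at 3.39 CPM or less and Ly6g at or near 0. C1qb reached 26.1 CPM in breast and 63.1 CPM in lung BrM, against 0.646 CPM or less in non-tumor. By edgeR, Aif1, C1qa, C1qb and C1qc were called higher in both origins, Csf1r in lung BrM, and no immune marker was called lower. Mural markers summed to 30.4 to 246 CPM in the CD31 BrM libraries against 18.7 to 108 CPM in non-tumor. Astrocyte and oligodendrocyte lineage markers summed to 22.5 to 569 CPM in breast and 0 to 39.3 CPM in lung BrM against 13.3 to 48.1 CPM. The part of immune, mural and glial RNA in the mitotic levels was not tested.

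**Figure D3:**
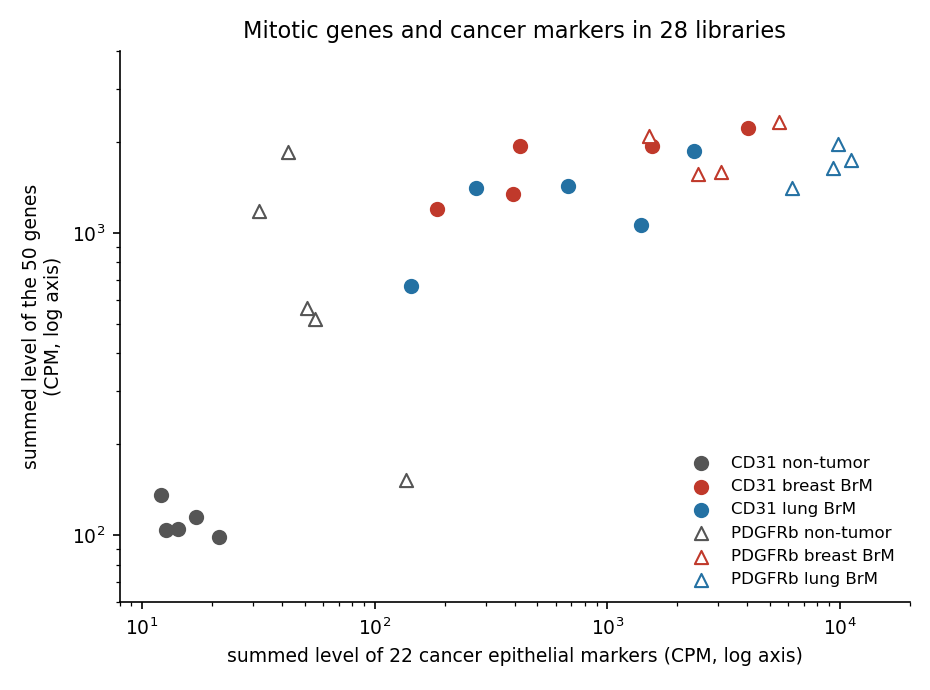
Summed level of the 50 mitosis and G2/M genes (y axis, CPM) against that of 22 cancer epithelial markers (x axis, CPM) in the 28 libraries, both on log axes, filled circles for CD31 and open triangles for PDGFRb. CD31 BrM libraries with 143 to 4032 CPM of markers hold 667 to 2225 CPM of mitotic RNA, and PDGFRb non-tumor libraries reach 1847 CPM with 136 CPM of markers or less.

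To size the cancer share, the PDGFRb library of the same mouse was taken as the cancer profile. It was richer in cancer markers than the CD31 library in 7 of the 8 mice or pools; in mouse 51950 the markers summed to 1519.5 CPM in the PDGFRb and 1556 CPM in the CD31 library. The median ratio of CD31 to PDGFRb level over the cancer markers gave the fraction carried over. That fraction of a gene's PDGFRb level was set against its CD31 level (the carry-over share). The share is taken of the whole CD31 level, including any level already present in non-tumor brain, so it does not size the rise. All mitotic RNA of the PDGFRb library was treated as cancer RNA. The estimate could be made in 8 mice or pools, 4 per origin, since mice 53142 and 51697 have no PDGFRb library.

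Cancer carry-over so estimated fell short of the measured level by a wide margin in 6 of 8 mice and by less in the other 2. The carried fraction was 59.0, 7.32, 12.5 and 71.8% in breast mice 51950, 52599, 52865 and 53072, and 36.4, 7.48, 1.28 and 2.35% in lung 51435, 54957, 55169-70 and 56195-56520. The estimate then came to 63.7, 9.51, 10.2 and 74.8% of the summed mitotic level in the breast mice, and to 27.5, 10.3, 3.14 and 2.92% in the lung mice. What was left after the estimate was 701, 1089, 1740 and 560 CPM in breast and 1348, 1282, 646 and 1364 CPM in lung mice. Each of these lay above the highest non-tumor CD31 library (136 CPM), by 4.11 to 12.8 times. Over genes and mice the median share was 9.44%. It was 24.8% when the marker with the highest ratio replaced the median marker, 13.5% with the mean PDGFRb profile of the same origin and 3.37% when the mean non-tumor PDGFRb level was first subtracted. Mice differed widely around it. The median over genes was 0.359, 10.2, 8.93 and 72.0% in the breast mice, in the same order. In the lung mice it was 27.1, 9.31, 3.16 and 3.20%, and the SD over the 8 mice was 23.8 percentage points. The 0.359% of mouse 51950 comes with 21 of the 50 genes at 0 in its PDGFRb library.

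With the highest marker ratio, the estimate exceeded the measured sum in the same 2 breast mice, at 112% in 51950 and 154% in 53072. It was 25.2 and 21.6% in breast mice 52599 and 52865, and 37.8, 33.5, 15.6 and 9.73% in the lung mice. In those 6 mice 563 to 1519 CPM were left. So in breast BrM the level beyond the strictest estimate rests on 2 mice, 52599 and 52865. The PDGFRb library of mouse 51950 is the one with 21 of the 50 genes at 0, and the endothelial marker sum of CD31 library 53072, 6273 CPM, is the lowest of the sort.

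**Figure D4:**
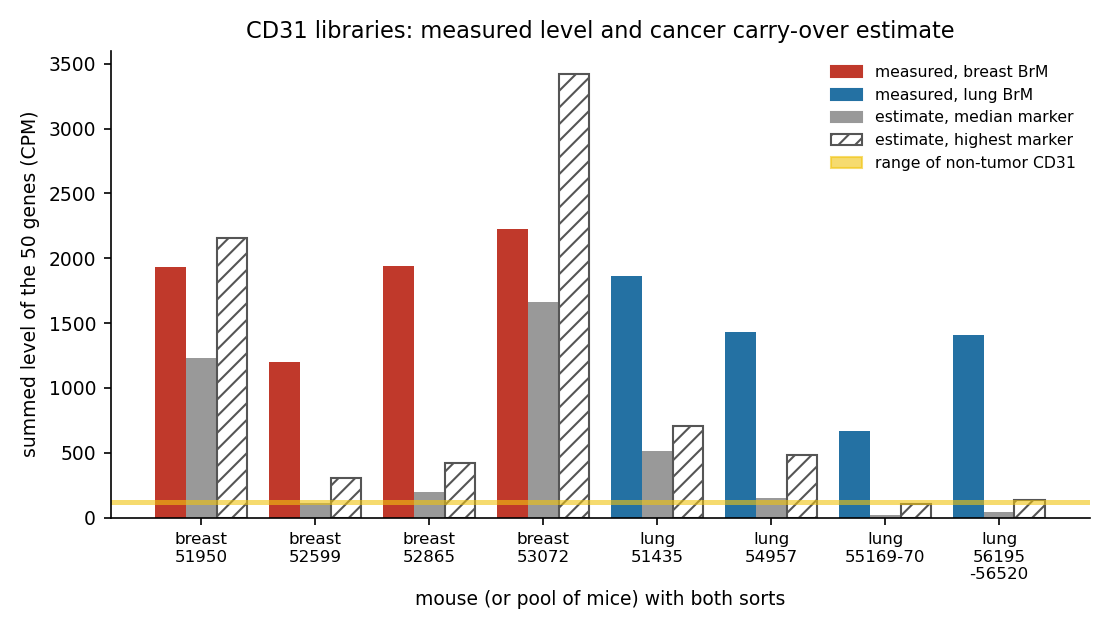
Summed level of the 50 genes (y axis, CPM) in the CD31 library of each of 8 mice or pools, beside the cancer carry-over estimate from the median marker (grey) and from the highest marker (hatched), with the range of non-tumor CD31 libraries as a band. The median-marker estimate stays below the measured level in each mouse, and the highest-marker estimate exceeds it in breast mice 51950 and 53072.

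By gene, the median share over the mice with a value was under 50% for each of the 50 genes, under 20% for 48 and under 10% for 25. Over the 4 breast mice alone the median exceeded 50% for Cks2 (76.5%), Kif20a (62.0%), Kif2c (56.01%) and Aurka (52.2%), where the lung medians were 7.62, 20.5, 4.003 and 4.99%. The lowest medians were those of Kif15 (3.47%), Kif4 (3.91%), Aurkb (4.32%), Smc2 (4.79%) and Cdk1 (4.81%). For Kif15 the CD31 breast levels of mice 51950, 52599, 52865 and 53072 were 8.49, 8.14, 11.5 and 10.5 CPM, against PDGFRb levels of 0, 5.49, 4.05 and 8.64 CPM. Kif15 was thus higher in the CD31 library of each pair, the one with fewer cancer markers in 52599, 52865 and 53072. The pair of mouse 51950 rests on a 0 in the PDGFRb library that has 21 of the 50 genes at 0. Mki67 had a median share of 5.33%. The highest medians were those of Kif20a (40.1%), Cdc25c (23.7%), Ect2 (19.9%), Ccnb1 (18.8%) and Cdca3 (17.97%). In lung pool 56195-56520 Kif20a stood at 37.9 CPM in the PDGFRb and 0.0640 CPM in the CD31 library, a share of 1394%. In that pool 44 of the 50 genes lay above the estimate, and 5 were at 0 in the CD31 library and have no share. These were Cdc25c, Kif4, Anln, Ect2 and Mybl2, with 5.35 to 30.3 CPM in the PDGFRb library, so the estimate exceeds their level there. Their medians are over 7 mice and would be higher with that pool. For Ect2, at 19.9%, this decides whether it counts as under 20%.

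A gene's level exceeded its estimate in all 8 mice for 32 genes, and in all 7 for 41 genes without mouse 51950. With the highest marker ratio this held in all 8 mice for 6 genes, Bub1, Ttk, Melk, Smc2, Smc4 and Ncapg. In the PDGFRb library of mouse 51950 Smc4 stood at 0.141 CPM and the others at 0. For that mouse the comparison of these genes therefore could not have come out otherwise. Of 395 gene and mouse pairs with a value, 337 (85.3%) had a share under 50% and 15 one of 100% or more. In mouse 53072, 6 of the 50 genes had a share under 50%. In mice 52599, 52865, 54957 and 55169-70 all 50 did. By role, the median of the genes' shares was lowest for chromatin compaction (6.43%) and the passenger complex (7.64%). It was highest for midzone and cytokinesis (14.6%) and the cyclin, CDK and transcription genes (14.2%). Of the compaction genes, Smc4, Smc2 and Ncapd2 already averaged 8.99, 6.83 and 7.67 FPKM in non-tumor CD31 libraries. Their low shares therefore do not size a rise. Less the estimate, 38, 49, 50 and 43 genes lay above their highest non-tumor level in breast mice 51950, 52599, 52865 and 53072. In lung 51435, 54957, 55169-70 and 56195-56520, 49, 49, 42 and 40 did.

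When the estimate was subtracted from every gene of the CD31 BrM libraries with a partner and the test was repeated, 42 of the 50 genes were called higher in breast and 41 in lung BrM (edgeR, 4 BrM against 5 non-tumor libraries). Subtracting the highest-marker estimate left 17 in each. In that case the median log2 change was still 4.87 and 4.96. Leaving out the 2 breast libraries with an estimate over 50% (51950 and 53072), with nothing subtracted, left 47 genes called in breast BrM. The share of all genes called in these refits was not computed, so their counts have no background to be read against. These settings were chosen after the data had been seen.

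**Figure D5:**
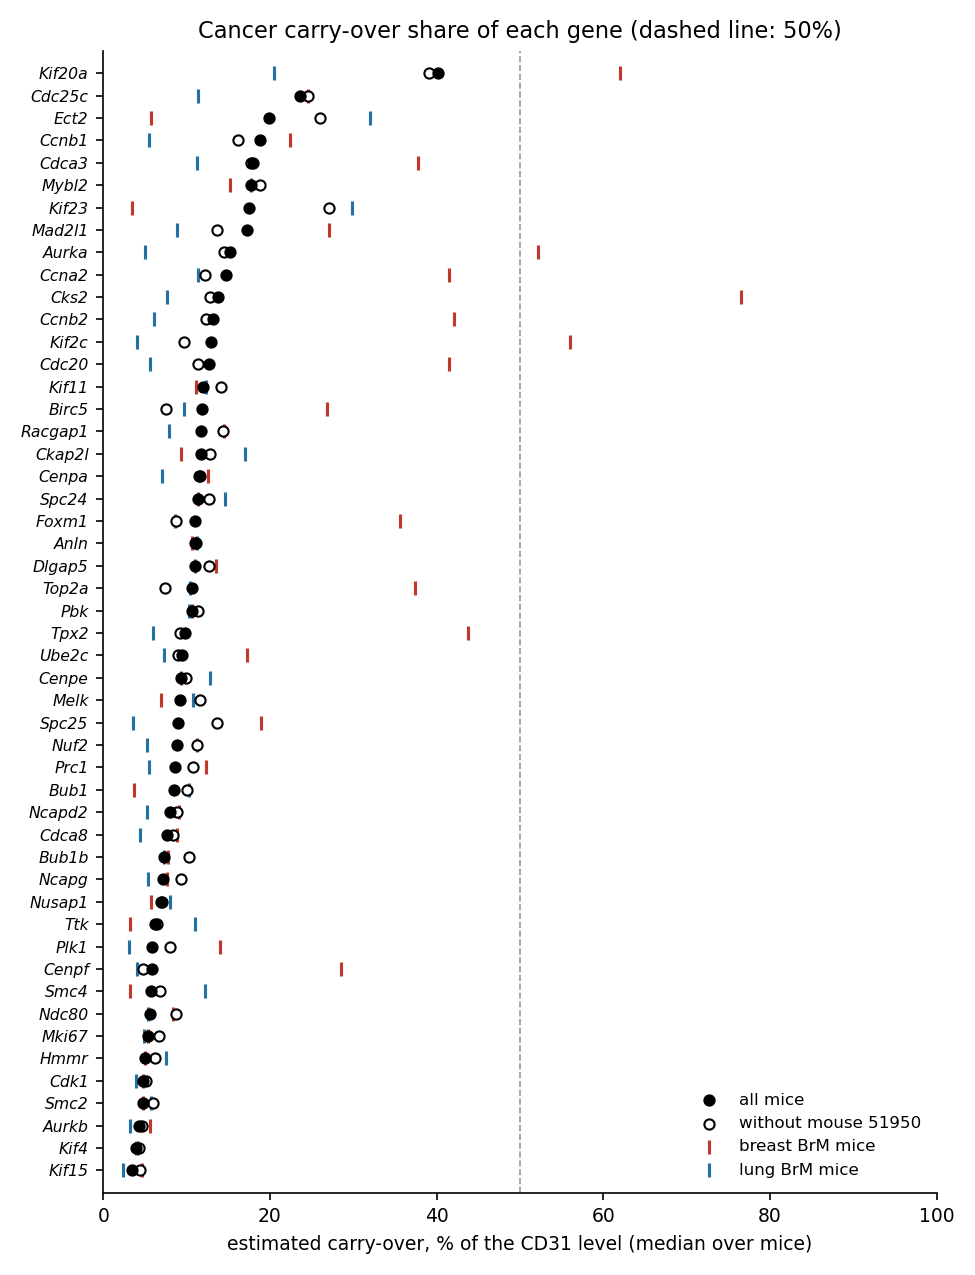
Cancer carry-over share of each gene, in % of its CD31 level (x axis), as the median over 8 mice (filled), over 7 mice without 51950 (open) and over the 4 breast or 4 lung mice (bars). Medians over all mice run from 3.47% for Kif15 to 40.1% for Kif20a, all left of the dashed line at 50%, while the breast medians of Cks2, Kif20a, Kif2c and Aurka lie right of it.

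The PDGFRb sort differed from the CD31 sort in that its non-tumor libraries already held mitotic RNA. Their summed level was 152, 520, 566, 1179 and 1847 CPM, against 1563, 1584, 2083 and 2320 CPM in breast and 1408, 1641, 1744 and 1968 CPM in lung BrM. The highest non-tumor library, mouse 54135, lay within the range of both BrM groups. In the 5 non-tumor libraries neuron markers summed to 2.58, 121, 149, 298 and 1267 CPM in the same order of mice. Tubb3 reached 652 CPM, Dcx, a marker of young neurons, 369 CPM, Gad1 118 CPM and Gad2 101 CPM. Snap25 reached 18.2 CPM and Syt1 8.68 CPM, while Rbfox3 of mature neurons stayed at 0.784 CPM or less and Slc17a7 at 0. Astrocyte and oligodendrocyte lineage markers summed to 217 to 3753 CPM in them, and cancer markers to 31.9 to 136 CPM. The part of such cells in the mitotic level was not tested.

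Within the PDGFRb sort 6 of the 50 genes rose in breast BrM (edgeR, adjusted over 17028 genes, background 6.30% called higher) and 5 in lung BrM (background 9.91%). The median log2 change of the 50 genes was 1.01 and 1.08, against -0.156 and -0.0275 over all genes tested. Cancer markers summed to 31.9 to 136 CPM in the non-tumor libraries of this sort, 1519.5 to 5488 CPM in breast and 6246 to 11209 CPM in lung BrM, while mural markers were lower in both than in non-tumor. Their part in these changes was not tested. Among the genes called, Ccnb2 had the largest change in both origins. It stood at 2.52, 6.18, 7.21, 15.4 and 25.4 CPM in non-tumor, 79.2, 86.4, 96.1 and 272 CPM in breast and 53.7, 58.8, 67.6 and 69.7 CPM in lung BrM. The groups did not overlap, with log2 changes of 3.91 ± 0.62 and 2.71 ± 0.59 (edgeR adjusted p = 0.00196 and 0.00701). Birc5 rose by 1.91 ± 0.54 and 2.35 ± 0.55, Ccna2 by 2.07 ± 0.60 and 1.99 ± 0.60, Cdc20 by 1.76 ± 0.45 and 1.42 ± 0.45, and Cks2 by 2.79 ± 0.55 and 1.68 ± 0.53. Tpx2 rose in breast BrM, by 2.31 ± 0.63. All 4 BrM libraries lay above all 5 non-tumor libraries for 4 genes in breast and 10 in lung BrM, where 5.45% and 17.0% of genes did so. Mki67 is an example of overlap, with 0.473, 5.71, 8.41, 13.3 and 17.97 CPM in non-tumor, 0, 13.3, 23.3 and 45.4 CPM in breast and 5.07, 10.9, 12.1 and 19.9 CPM in lung BrM. Without the PDGFRb library of mouse 51950, 10 genes were called in breast and 14 in lung BrM, and with date as a covariate 0 in each. For these refits no share over all genes was computed. No gene was called between lung and breast BrM in this sort (5.47% of all genes were), with 2 at an unadjusted edgeR p under 0.05 and 0 by DESeq2 or limma-voom.

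Another 9 of the genes given by library in the CD31 sort (Ccnb1, Aurka, Aurkb, Bub1, Melk, Tpx2, Prc1, Cdc20 and Smc4) overlapped between BrM and non-tumor in the PDGFRb sort, in both origins. Kif20a did not, with 27.5 CPM or less in non-tumor, 44.6 CPM or more in breast and 36.2 CPM or more in lung BrM. Ccnb1 stood at 8.10, 32.7, 33.8, 85.8 and 90.6 CPM in non-tumor, 30.4, 70.9, 93.9 and 132 CPM in breast and 45.9, 51.02, 56.1 and 58.2 CPM in lung BrM. Aurka stood at 0.473, 11.5, 15.8, 23.7 and 37.01 CPM in non-tumor, 24.9, 36.2, 49.9 and 103 CPM in breast and 22.01, 24.7, 28.2 and 41.7 CPM in lung BrM. Aurkb stood at 2.84, 4.76, 8.06, 12.8 and 34.2 CPM in non-tumor, 0.141, 11.03, 12.7 and 23.9 CPM in breast and 12.2, 13.9, 16.9 and 21.7 CPM in lung BrM. The lowest non-tumor level of each of these 3 genes was that of mouse 54132 and the highest came from mouse 54135. Bub1 stood at 0, 1.74, 3.76, 6.68 and 11.3 CPM in non-tumor, 0, 0.460, 4.83 and 9.92 CPM in breast and 7.84, 8.002, 13.8 and 21.6 CPM in lung BrM. Melk stood at 0.579, 3.16, 5.74, 16.8 and 26.3 CPM in non-tumor, 0, 3.31, 14.8 and 16.9 CPM in breast and 8.54, 15.8, 20.6 and 34.7 CPM in lung BrM. Tpx2 stood at 5.996, 11.1, 13.9, 34.04 and 47.8 CPM in non-tumor, 38.8, 54.3, 66.3 and 189 CPM in breast and 32.6, 33.04, 44.97 and 48.6 CPM in lung BrM. Bub1 and Melk were at 0 in the breast library of mouse 51950, which had the highest Tpx2 level. Prc1 stood at 1.95, 14.2, 20.01, 39.6 and 59.3 CPM in non-tumor, 1.97, 54.1, 62.6 and 72.99 CPM in breast and 30.4, 33.96, 37.1 and 41.5 CPM in lung BrM. Cdc20 stood at 10.1, 19.8, 31.6, 36.9 and 71.8 CPM in non-tumor, 64.5, 88.5, 91.1 and 127 CPM in breast and 71.4, 72.3, 81.5 and 82.9 CPM in lung BrM. Smc4 stood at 3.84, 9.47, 13.8, 15.6 and 18.7 CPM in non-tumor, 0.141, 7.56, 10.4 and 14.4 CPM in breast and 11.6, 33.7, 42.4 and 45.96 CPM in lung BrM. Prc1 and Smc4 were also lowest among breast libraries in mouse 51950, and the non-tumor level of Cdc20 exceeded that of CD31 cells in each mouse.

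Between the sorts, 41 of the 50 genes were higher in PDGFRb than in CD31 cells of non-tumor brain (edgeR, background 17.4% called higher), with a median log2 difference of 3.95. The 9 that were not called were Smc4, Smc2, Ncapd2, Kif23, Ndc80, Cenpa, Cenpe, Ect2 and Foxm1. In BrM no gene was called between the sorts in either origin, where 16.5% (breast) and 19.6% (lung) of all genes were. At an unadjusted edgeR p under 0.05 there were 4 in breast and 3 in lung BrM. DESeq2 called 2 and 1 of them, and limma-voom 3 and 3. By edgeR's test of the interaction, the change from non-tumor to BrM was smaller in PDGFRb than in CD31 libraries for 30 genes in breast BrM. In that direction 3.57% of all genes were called. In lung BrM it was smaller for 26 genes (6.35% of all genes). With the mouse as a block these counts were 14 and 17, with no share over all genes computed. The median of this difference was -4.54 and -3.84 on the log2 scale. In the PDGFRb lung libraries mural markers had a median sum of 465 CPM and cancer markers one of 9593 CPM. The part of cancer RNA in these comparisons of sorts was not tested.

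Other genes of the cell cycle were read from lists named by function, beside the 18.6% of all genes called higher and 11.4% lower in CD31 breast BrM, and 20.4% and 14.5% in lung BrM. A list of 50 further mitotic genes had 41 higher and 2 lower in CD31 breast BrM and 38 higher and 1 lower in lung BrM, with medians of 3.91 and 3.20. Its largest changes were in Spag5 and Kif18b, spindle proteins, in breast BrM, and in Troap, a spindle assembly protein, in both. Spag5 averaged 0.0436 CPM in non-tumor and 16.8 CPM in breast libraries, and Kif18b 0.0795 and 21.4 CPM. Pttg1, which encodes securin, was lower in both comparisons, by -1.05 ± 0.17 and -1.16 ± 0.17 on the log2 scale, against the direction of most of the list, and Bub3 was lower in breast BrM (-0.39 ± 0.11); both are named here after their values were seen. Of 34 S phase genes 26 rose in breast and 24 in lung BrM and none fell, with medians of 1.69 and 1.80, below those of the mitotic genes. E2f1, a transcription factor of S phase entry, had 0 counts over the 5 non-tumor libraries and was at least 451-fold higher in breast and at least 169-fold higher in lung BrM, against 3 counts over the group. Cdc6, a licensing factor, rose by 7.31 ± 1.27 and 6.34 ± 1.23, and Ccne1 (cyclin E1) by 6.74 ± 0.89 and 6.21 ± 0.88.

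Of 7 genes that drive G1, 3 rose and 1 fell in breast BrM and 4 rose in lung BrM, where 18.6% and 20.4% of all genes were called higher. Myc rose by 5.09 ± 0.44 and 5.70 ± 0.46, Ccnd1 (cyclin D1) by 2.41 ± 0.21 and 1.63 ± 0.20, and Ccnd2 fell by 1.90 ± 0.67 in breast BrM. Of 16 tested genes of cell cycle arrest and quiescence, 1 rose and 5 fell in breast BrM and 1 rose and 6 fell in lung BrM, where 11.4% and 14.5% of all genes were called lower. Cdkn1c (the inhibitor p57) fell by 2.08 ± 0.73 and 2.74 ± 0.74, and Rbl2 (p130, a pocket protein of the DREAM complex in resting cells) by 1.66 ± 0.42 and 1.74 ± 0.42. The one that rose was Btg1, an antiproliferative gene, by 2.15 ± 0.29 and 1.86 ± 0.29. In the PDGFRb sort 1 of the 50 further mitotic genes rose in breast BrM and none in lung BrM, where 1 fell.

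The CD31 difference held within each date that has both kinds of brain. Sums for the 50 genes were 1930 and 2225 CPM in breast BrM beside 104.2 CPM in non-tumor on 1 date, and 1203 to 1938 beside 115.2 CPM on another. Lung BrM and non-tumor, which share a date once, gave 1405 and 1429 beside 105.3 and 136.4 CPM. For the PDGFRb sort the corresponding sums were 2083 and 2320 beside 566.2 CPM, 1563 and 1584 beside 1847 CPM, and 1744 and 1968 beside 519.5 and 1179 CPM. The sign thus turned on the date that holds mouse 54135. With date as a covariate, 43 and 33 of the 50 genes were called in the CD31 sort. The share of all genes called was not computed for that refit.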

How the data were processed

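RNA of 28 libraries was made with the SMART-Seq HT and Nextera XT kits, per the labels' protocols, which mark neither strand nor molecules. The authors deposited estimated counts per gene for all libraries, FPKM values per sort and log2 normalised values per sort. Per the submitters' processing notes, the work used build mm10 with limma 3.50.3 and edgeR 3.36.0, and also the aligner STAR (2.7.9a) and the quantifier RSEM (1.3.3), without saying which step used which. Which of these gave the deposited FPKM and log2 values is not given in the sources used here. Some estimated counts carried fractions and were rounded to whole numbers, and libraries held 7105172 to 23934043, and 3 counts set the floor of detection.

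Counts were fitted in R 4.3.3 with edgeR 4.0.16 (filterByExpr, TMM, robust quasi-likelihood), each sort on its own and both sorts together for comparisons between them, with Benjamini-Hochberg adjustment over all genes tested and a threshold of 0.05. The fit was tested on simulated data. CPM in the text use raw library totals, while log2 changes use the fit, so ratios of CPM and fitted folds differ. The SE of a log2 change was taken as its size divided by the square root of its F statistic. It is approximate, above all for genes with few non-tumor counts. A cancer marker entered the carry-over estimate of a mouse where it had at least 10 CPM in the PDGFRb library and stayed under 10% of that in each non-tumor library. Subtracted estimates were limited at 0. The members, roles and lists were chosen with earlier results of these data known. Values in every library are given for 1 gene of each role (Mki67, Ccnb1, Aurka, Aurkb, Bub1, Tpx2, Prc1 and Cdc20) and for those with the largest and smallest changes. Also named are genes not called in a CD31 comparison, the 4 with the lowest p in lung against breast BrM, the 5 lowest and highest carry-over shares, and up to 3 changed genes a list.

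Sorts of 1 mouse are paired by animal, and the deviations of the 13 pairs from their group means correlated by -0.12 to 0.35 (median 0.0067), with 3 pairs over 0.1. Alternatives were other scalings, DESeq2 1.42.0, limma 3.58.1 (voom, and trend on the deposited log2 and FPKM values), other filters, libraries left out, date as a covariate, the mouse block and other carry-over settings. Mouse 54135 was grouped by title. Libraries did not repeat each other. Promoter sequences are from RefSeq (GRCm38.p6), and 10 genes were not matched there.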

Additional observations from a re-analysis of the deposited data

Results flagged for a closer look

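Of 66 groups of 4 or 5 libraries examined for 11 items, 4 held a library far from the rest, where chance gives about 1 in 20. The items were Mki67, Ccnb1, Birc5, Bub1, Aurka, Cdc20, Tpx2, Kif20a, Melk, Smc4 and the summed level. Aurkb and Prc1, given by library above, were not examined in this way. In non-tumor CD31 libraries, Mki67 stood at 1.1446 CPM in mouse 56727 against 0 to 0.317 CPM in the other 4. Bub1 stood at 0.10553 CPM in mouse 54135 and Melk at 0.048068 CPM in mouse 56740, with the other 4 at 0. The Mki67 value is 21 counts, that of Bub1 2 counts and that of Melk 1 count. In lung BrM, Cdc20 stood at 30.5 CPM in the CD31 library of pool 55169-70 against 76.1 to 91.2 CPM in the other 4.

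The change from non-tumor to BrM differed between the sorts, by edgeR's interaction test, for 30 of the 50 genes in breast and 26 in lung BrM. Each was smaller in the PDGFRb libraries. The PDGFRb non-tumor libraries, from which that change is counted, held 152 to 1847 CPM of the 50 genes and those of CD31 98.6 to 136 CPM.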

How the results depend on the processing

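With mouse 54135 grouped by its cell type label, 9 genes were called in CD31 breast and 6 in CD31 lung BrM, 3 in PDGFRb breast BrM, and 0 between the non-tumor sorts and in both interaction tests. The highest-marker estimate, subtracted, left 17 in each CD31 comparison. The share of all genes called was computed for the main fits only, so the counts in this section have no background to be read against. Between lung and breast BrM in CD31 cells, limma-voom and both settings on log2(FPKM + 1) called 1. Leaving out 1 library gave 48 to 49 calls in CD31 breast and 44 to 48 in CD31 lung BrM. In PDGFRb breast BrM calls numbered 2 without the lung pools, 0 with date, 3 on log2(FPKM + 0.1), and 2 to 10 with 1 library left out. In PDGFRb lung BrM they numbered 2 with RLE or upper-quartile scaling, 8 with DESeq2, 11 with limma-voom, 3 with no filter or CPM above 1, 0 without the pools or with date, 9 at a mean FPKM of at least 1, and 2 to 14 with 1 library left out. That FPKM setting called 1 between lung and breast BrM in PDGFRb cells. Between sorts in breast BrM, upper-quartile scaling gave 3, DESeq2 2, limma-voom 3, and leaving out 1 library 0 to 1. In lung BrM DESeq2 gave 1, limma-voom 3, and leaving out 1 library 0 to 3. With the mouse as a replicate block the interaction counts were 14 and 17, and 31 genes were called between the non-tumor sorts. The cause of these differences was not tested.

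Smc4 in CD31 lung BrM turned sign, to a log2 change of 0.03424 with 54135 by label, 0.03695 without the pools, 0.02943 with date, 0.06639 and 0.05374 on FPKM with 1 and 0.1 added, and 0.05781 after subtraction. With 1 library left out it ran from -0.359 to 0.001871. Genes with few non-tumor counts have wide intervals, and the PDGFRb library of mouse 51950 limits the estimate for its mouse.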
